A study of Mus musculus with 6 samples.

Results

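Genes were compared between B16F10 mouse melanomas treated with AZD5363, MK1775 and anti-PD-1 together and melanomas treated with anti-PD-1 alone, so the comparison asks what the inhibitor pair added to the antibody. A gene was compared where it had 20 or more counts in either tumour pool, which kept 7138 of the 43629 genes in the count table, 7003 of them protein-coding. The tumours grew under the skin of 8-week-old female C57BL/6J mice injected with B16F10, a transplantable melanoma line of that strain, and treatment was daily until control tumours measured 2000 mm3. The group given AZD5363, MK1775 and anti-PD-1 is called the triple pool, and its comparator, called the anti-PD-1 pool, received DMSO and anti-PD-1. A pair of pools outside that comparison is set beside it below: AZD5363 and MK1775 with control IgG, and the control of DMSO and control IgG. The 2 other pools of the series received KS100, an aldehyde dehydrogenase inhibitor, with either antibody. The tumours of each treatment were pooled before RNA extraction, so each treatment had 1 library, no spread between animals can be given, and no test was possible. How many mice a pool held is not given in the sources used here.

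AZD5363 inhibits AKT, the kinase that carries growth factor and PI3K signals to mTOR, to glycogen synthase kinase and to the FOXO transcription factors. MK1775 inhibits WEE1, which holds CDK1 and CDK2 in their phosphorylated, inactive form and so delays mitosis while DNA is being replicated or repaired. PD-1 is an inhibitory receptor of activated T cells, and antibodies to it release those cells from restraint by its ligands. T and NK cells release interferon-γ, which acts through its receptor and JAK kinases to induce guanylate-binding proteins, immunity-related GTPases, IRF1 and the machinery of antigen presentation. Type I interferons act through a transcription factor complex that holds IRF9 and binds the interferon-stimulated response element, or ISRE.

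The promoters of genes that were far higher in the triple pool are shown because ISRE letters lie close to their start sites. They were picked for holding a match, and called members without one were passed over. Among genes called higher, a promoter held the letters in 75.0% of 12 interferon-γ, 47.1% of 17 type I interferon and 23.1% of 13 MHC class I genes. Each sequence runs 300 bases in the sense of transcription, was taken from RefSeq on build GRCm38.p6, and has in capitals every match, on either strand, to the ISRE letters searched: GAAA, any 2 bases, GAAA. Gbp7 (chr3:142530086-142530385, plus strand) encodes a guanylate-binding protein. Igtp (chr11:58199306-58199605, plus strand) and Gm12250 (chr11:58183593-58183892, plus strand) encode immunity-related GTPases that guard against intracellular parasites. Ifi203 (chr1:173942443-173942742, minus strand) encodes an interferon-inducible protein of the p200 family.
Gbp7: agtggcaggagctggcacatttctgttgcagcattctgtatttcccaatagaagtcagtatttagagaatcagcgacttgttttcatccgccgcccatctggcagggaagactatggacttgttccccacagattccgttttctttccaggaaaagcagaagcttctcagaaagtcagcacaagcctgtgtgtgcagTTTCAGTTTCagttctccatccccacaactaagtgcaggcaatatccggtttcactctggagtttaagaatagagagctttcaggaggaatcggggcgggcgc
Igtp: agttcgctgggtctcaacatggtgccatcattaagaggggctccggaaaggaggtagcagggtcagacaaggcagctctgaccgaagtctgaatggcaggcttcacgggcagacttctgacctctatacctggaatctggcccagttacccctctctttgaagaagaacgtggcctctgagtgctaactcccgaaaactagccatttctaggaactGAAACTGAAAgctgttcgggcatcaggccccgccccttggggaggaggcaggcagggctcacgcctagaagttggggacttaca
Gm12250: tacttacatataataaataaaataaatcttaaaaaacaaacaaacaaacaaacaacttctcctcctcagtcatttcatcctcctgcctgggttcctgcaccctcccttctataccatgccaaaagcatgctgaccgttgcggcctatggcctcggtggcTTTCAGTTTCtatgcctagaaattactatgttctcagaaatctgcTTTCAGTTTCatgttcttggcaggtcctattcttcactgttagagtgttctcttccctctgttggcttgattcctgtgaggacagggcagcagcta
Ifi203: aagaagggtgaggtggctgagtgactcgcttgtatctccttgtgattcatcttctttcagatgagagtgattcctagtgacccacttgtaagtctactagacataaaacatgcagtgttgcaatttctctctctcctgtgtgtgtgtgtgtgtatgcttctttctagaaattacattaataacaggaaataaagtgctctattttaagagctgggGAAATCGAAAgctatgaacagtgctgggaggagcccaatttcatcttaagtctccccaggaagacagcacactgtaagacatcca
Gm12250 held 2 matches and the others 1 each. Of the 32851 RefSeq promoters of this length, 3.44% held these ISRE letters on either strand, against 40.7% of the 27 promoters of the interferon-γ list and 40.0% of the 40 promoters of the type I interferon list. The list shares cover all listed genes and do not depend on the counts. Among promoters of all genes tested the share was 3.03%, among those called higher, which include list members, 5.34%, and among those called lower 3.2%. The letters of the gamma-activated sequence, TTCNNNGAA, searched on both strands, were in 44.4% of the interferon-γ promoters, 17.5% of the type I interferon promoters and 8.3% of all promoters. A match of letters is a description and does not show that a factor was bound.

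The 2 libraries differed in depth and composition. The triple pool held 338474 counts and the anti-PD-1 pool 1002088, which was 2.96-fold more, and 3 counts corresponded to 14.9 and 3.03 normalised CPM (counts scaled to the library with edgeR's TMM factors and to a total of 1000000). Ribosomal RNA genes took 27.6% of the counts in the triple pool (95% exact binomial interval, 27.5-27.8%) and 0.0679% in the anti-PD-1 pool. Mitochondrial messenger genes took 5.19% against 1.24%, small nuclear, nucleolar and mitochondrial transfer RNA genes 0.291% against 0.0157%, skeletal muscle genes 1.11% against 0.0966%, and erythroid genes 0.0183% against 0.4%. These values moved with every result below, and their part in those results was not tested. The label of melanoma held in both pools: pigment cell genes took 1.57% of counts in the triple pool and 2.39% in the anti-PD-1 pool, led by Dct, and keratinocyte markers had 3 counts in each pool.

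A gene was called higher or lower where its normalised ratio was 2-fold or more and its 95% exact conditional interval lay wholly beyond 1.5-fold. Such intervals cover counting error only, since reads without molecular identifiers are not independent molecules, and they say nothing of the spread between tumours. By that rule 1000 genes (14.0% of those tested) were higher in the triple pool and 579 (8.11%) were lower, 22.1% in all. Scaling by library totals instead gave 513 higher and 1760 lower, and TMM over the 2 pools alone gave 782 and 924, so the balance of higher and lower calls follows the scaling. Across settings that included every scaling and an adjustment for transcript length, 513 genes stayed called higher and 381 called lower. Each alternative scaling lowered all ratios, so no lower call could be lost to scaling. The 513 equals the number called higher under library totals alone. The 381 equals the number of lower calls kept by the length adjustment alone.

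Genes called higher took 53.9% of the counts in the triple pool and 9.37% in the anti-PD-1 pool, while genes called lower took 4.15% and 23.9%. Such a difference follows from the calling rule and is no separate result. Ribosomal RNA genes alone took 27.6% of the triple pool's counts and mitochondrial messenger genes 5.19%. Across the genes tested the median log2 ratio was -0.05, and levels in the pools correlated with a Pearson r of 0.632 across the 7138 genes, which are not independent replicates. Because the anti-PD-1 pool was deeper, 4355 genes reached 20 counts in it alone and 185 in the triple pool alone. The 185 had to be higher to enter, so lists below are described by the summed ratio of all their members and by calls among members with 20 or more counts in the anti-PD-1 pool. All 185 were called higher. For every gene named below with fewer than 20 counts in the anti-PD-1 pool, a higher call therefore follows from the minimum and is no separate support. Among all 6953 genes with that minimum, 815 (11.7%) were called higher and 579 (8.33%) lower. These shares are the background for the calls of list members below.

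**Figure D1:**
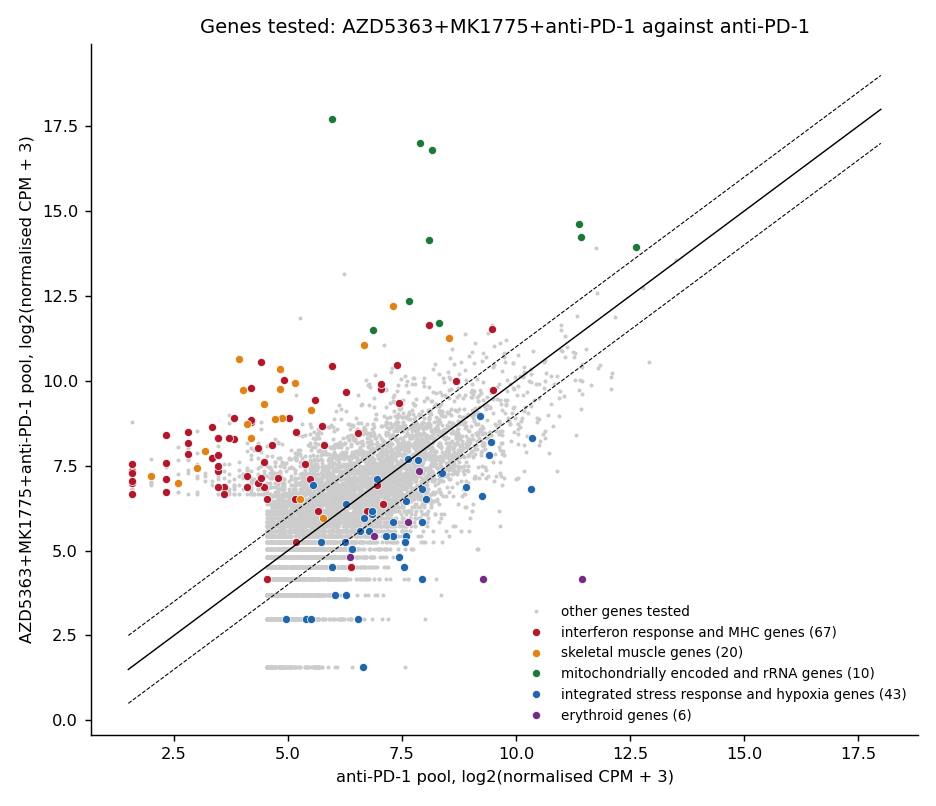
Each point is 1 of the 7138 genes tested, with its level in the triple pool on the vertical axis and in the anti-PD-1 pool on the horizontal axis, both as log2(normalised CPM + 3); the solid line marks equal levels and the dashed lines 2-fold. Interferon and MHC genes, muscle genes and mitochondrial and ribosomal RNA genes lie mostly above the dashed band, and stress response, hypoxia and erythroid genes mostly on or below the line.

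Interferon-γ response genes were 17.0-fold higher in sum in the triple pool (15.4-18.8), with 1753 counts or 8720 normalised CPM against 506 counts or 512 normalised CPM in the anti-PD-1 pool. Of the 31 matched genes, 7 reached 20 counts in the anti-PD-1 pool, 4 of those were called higher and none lower, and another 14 reached the minimum in the triple pool alone. In bulk tumour RNA, more responding cells and more RNA per cell cannot be told apart. Iigp1, an immunity-related GTPase, had 1490 normalised CPM in the triple pool against 18.2 in the anti-PD-1 pool, from 300 and 18 counts, a ratio of 82.0 (51.0-140). It supplied 17.1% of the list's counts in the triple pool, and the other members together were 14.6-fold higher.

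The guanylate-binding proteins and immunity-related GTPases of the list, which attack the vacuoles of intracellular microbes, had few counts in the anti-PD-1 pool. Of those named, Igtp alone reached 20 counts there, so the others could be tested only where they were high in the triple pool. Gbp7 (chromosome 3, 142530342-142550149, GRCm38) had 176 counts in the triple pool and 15 in the anti-PD-1 pool, a ratio of 57.7 (34.1-105). Gbp4 had 68 and 2 counts, a ratio of 167 (44.6-1410). Igtp (chromosome 11, 58199556-58207591) had 210 and 27 counts, a ratio of 38.3 (25.6-59.4). Ifi47, Irgm1, Irgm2, Gbp2, Gbp3 and Tgtp1 had ratios of 22.1 to 38.7 for 36 to 92 counts in the triple pool. Gm12250 had 26 counts against 0, which is at least 42.6-fold higher. Members of these families are close copies of each other, so their reads may be divided between copies in ways the counts do not show.

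Irf1 and Irf8, transcription factors that interferon-γ induces, were called higher, and a receptor chain and a kinase of the pathway were not called. Irf1, which switches on MHC genes, had 955 normalised CPM in the triple pool and 129 in the anti-PD-1 pool, a ratio of 7.38 (5.87-9.3). Irf8, a transcription factor of myeloid cells, had 58 and 4 counts, a ratio of 71.3 (26.4-271). Parp14, an ADP-ribosyltransferase, had 37 counts in the triple pool and 0 in the anti-PD-1 pool, at least 60.7-fold higher. Irf8 and Parp14 could be tested only because they were high in the triple pool. Ifngr1, the ligand-binding chain of the receptor, had 119 and 120 normalised CPM, a ratio of 0.992 (0.612-1.55). Jak2 was at 1.04 (0.39-2.4) and the feedback inhibitor Socs3 at 0.738 (0.14-2.49), from 7 and 3 counts in the triple pool, so modest changes in them were not detectable at this depth.

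Type I interferon response genes were 7.32-fold higher in sum (6.73-7.97), with 6810 normalised CPM in the triple pool and 930 in the anti-PD-1 pool. Of the 11 with 20 or more counts in the anti-PD-1 pool, 7 were called higher and none lower. Rsad2, which encodes the antiviral enzyme viperin, had 1380 and 59.7 normalised CPM, a ratio of 23.2 (17.4-31.2). Herc6, the mouse ligase that attaches ISG15 to proteins, had 477 and 29.3 normalised CPM, a ratio of 16.3 (10.7-25.6), and Isg15 itself 274 and 22.2, a ratio of 12.3 (7.38-21.2). Both the modifier and its ligase were thus called higher.

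Other antiviral effectors differed in size. Bst2, or tetherin, which holds budding virions on the cell, was at 3.81 (3.01-4.82), and Samhd1, which depletes deoxynucleotides, at 3.92 (2.83-5.42). Ifi203 had 80 and 7 counts, a ratio of 56.2 (26.1-144), and Ifi44 38 and 2 counts, a ratio of 93.5 (24.2-800). Xaf1 had 31 counts in the triple pool and 0 in the anti-PD-1 pool, at least 50.8-fold higher. Ifi203, Ifi44 and Xaf1 could be tested only because they were high in the triple pool. A pair of well-covered members did not follow: Ifi27 was at 0.601 (0.334-1.01) and Lgals3bp at 0.669 (0.353-1.17), neither called. Under library totals Ifi27 was the 1 gene of the list called lower. Classical members such as Mx1, Oas1a, Irf7 and Ifit1 had 1 to 9 counts in the triple pool and were not tested.

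MHC class I pathway genes were 4.88-fold higher in sum (4.62-5.16), with 12700 normalised CPM in the triple pool and 2600 in the anti-PD-1 pool. Of the 10 members with 20 or more counts in the anti-PD-1 pool, 9 were called higher and none lower. The heavy chains H2-K1 and H2-D1 were at 11.9 (10.3-13.8) and 8.52 (7.0-10.4), and their shared light chain B2m had 2950 and 712 normalised CPM, a ratio of 4.14 (3.71-4.63). Heavy chain genes are similar in sequence, and reads between them may be divided unevenly. Genes of the peptide supply were among those called. The peptide transporter subunit Tap1 was at 10.7 (7.01-16.7), its partner Tapbp, or tapasin, at 8.07 (5.61-11.7), and the loading chaperone Pdia3 at 10.9 (8.24-14.5). Psmb8 and Psmb9, catalytic subunits that turn the proteasome into the immunoproteasome, had 72 and 46 counts in the triple pool and 4 each in the anti-PD-1 pool, ratios of 88.5 (33.1-334) and 56.6 (20.7-216). Both could be tested only because they were high in the triple pool. Canx, a general glycoprotein chaperone, was the member not called, at 1.18 (0.992-1.4). The 31 constitutive proteasome genes, set beside these, were at 1.01 in sum (0.959-1.06). Of the 31, 6 (19.4%) were called higher and 4 (12.9%) lower, above the 11.7% and 8.33% of all genes with the same minimum.

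MHC class II pathway genes were 9.01-fold higher in sum (7.77-10.5), from 511 counts in the triple pool and 279 in the anti-PD-1 pool. Only 2 members, Ctss and Ifi30, had 20 or more counts in the anti-PD-1 pool, and 1 was called higher and 1 lower, while another 6 reached the minimum in the triple pool alone. Those 6 could be tested only because they were high there. Ciita, the transactivator that class II genes depend on, had 25 counts against 0, at least 41.0-fold higher. H2-Aa had 95 and 11 counts, a ratio of 42.5 (22.7-88.0), and H2-Eb1 and H2-Ab1 were at 28.9 (16.6-53.7) and 27.7 (14.5-58.4). Ctss, the cathepsin that trims the invariant chain, had 860 and 128 normalised CPM, a ratio of 6.7 (5.3-8.49). Ifi30, the lysosomal thiol reductase, went the other way with 4 and 80 counts, a ratio of 0.246 (0.0654-0.655), which was lost after adjustment for length.

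**Figure D2:**
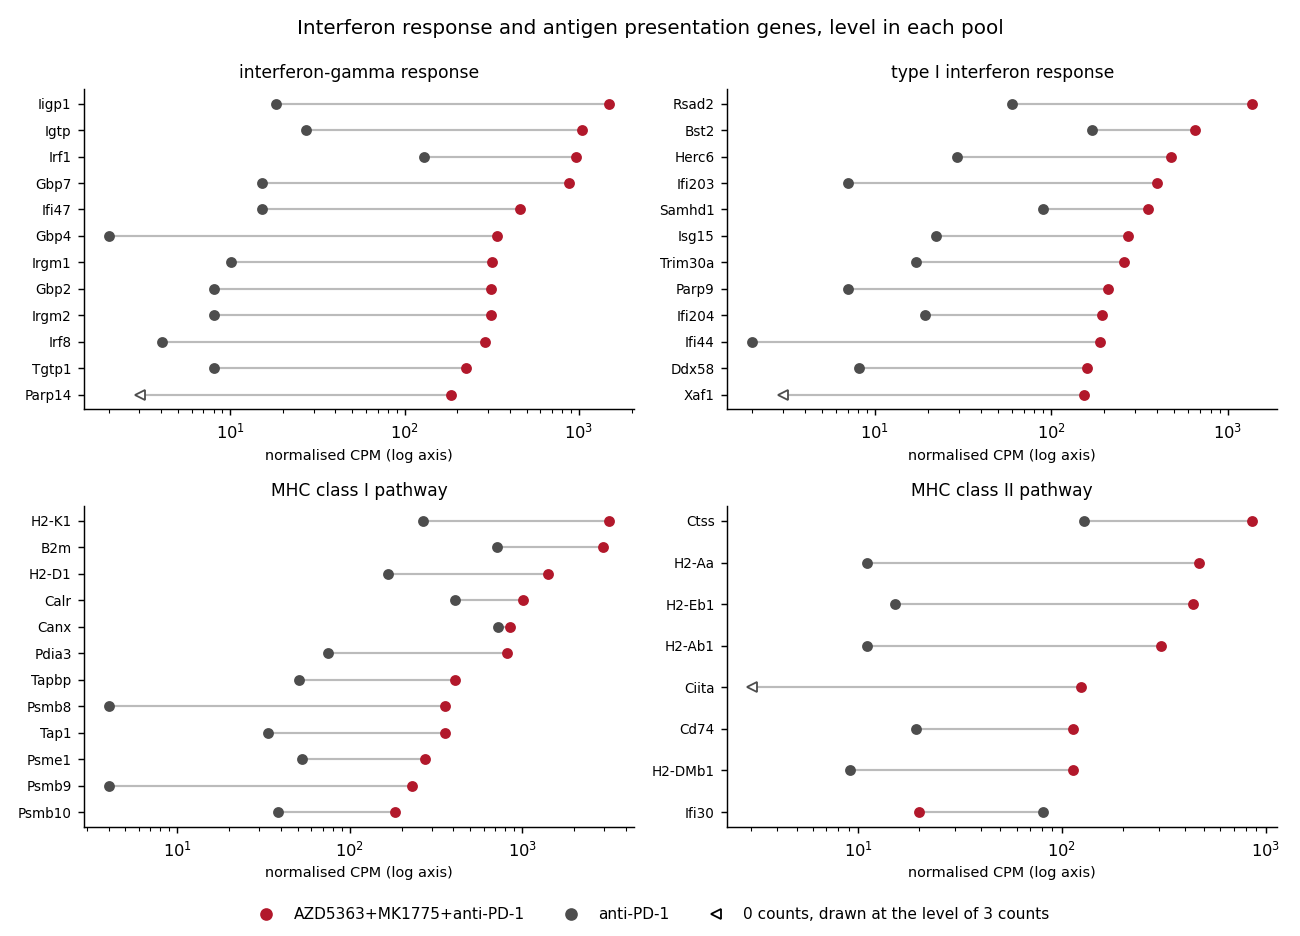
Each row is a gene, with its normalised CPM on a log axis in the triple pool (red) and the anti-PD-1 pool (grey), for up to 12 tested members of each list, taken by their higher level among the genes reported. The red point lies to the right for every gene drawn except Ifi30, and open triangles mark 0 counts, drawn at the level of 3 counts.

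Chemokines, nucleic acid sensors and checkpoint genes were covered by fewer counts. The T cell attractant Cxcl9 had 54 counts in the triple pool and 8 in the anti-PD-1 pool, a ratio of 33.2 (15.7-80.8), and Cxcl10, a ligand of the same receptor, 502 and 160 normalised CPM, a ratio of 3.14 (2.42-4.06). Cxcl9 could be tested only because it was high in the triple pool. The list was at 2.87 in sum (2.44-3.37), and at 1.73 and no longer called under library totals. Among sensors, the double-stranded RNA receptor Tlr3 was at 14.8 (7.02-33.8) and the RNA helicase Ddx58, or RIG-I, at 19.7 (8.88-49.4). Cgas was at 1.7 (0.702-3.75) and not called. Tmem173, or STING, was at 2.98 (1.62-5.35). The list of sensors was 4.07-fold higher in sum (3.46-4.79), and it shares Ddx58, Samhd1, Ifi204, Zbp1, Dhx58 and Ifih1 with the type I interferon list.

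Of the checkpoint genes, Cd274, which encodes the PD-1 ligand PD-L1, had 19 counts in the triple pool and 0 in the anti-PD-1 pool, at least 31.2-fold higher, and fell 1 count short of the minimum. Pdcd1, the gene of PD-1 itself, had 1 and 0 counts. Cd47, the signal that holds off phagocytes, had 234 and 32.4 normalised CPM, a ratio of 7.22 (4.51-11.7). Sirpa, its receptor, was at 0.889 (0.572-1.34), Lgals9 at 1.29 (0.575-2.65) and Pvr at 1.82 (0.787-3.88), none of them called.

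Markers of the leukocytes that could supply interferon were few in counts. T cell genes had 49 counts in the triple pool and 26 in the anti-PD-1 pool, a summed ratio of 9.27 (5.65-15.5), with Lck at 11 and 6, Trbc2 at 7 and 1, Cd27 at 7 and 0 and Thy1 at 3 and 17. No T cell gene reached the minimum, and Cd3e and Cd8a had 3 and 1 counts in the triple pool and 0 in the anti-PD-1 pool. Cytotoxic effector genes had 32 and 27 counts, a ratio of 5.83 (3.38-10.1), with Prf1, the pore-forming perforin, at 5 and 0 and the granzyme Gzmb at 3 and 0. Most of the anti-PD-1 pool's 27 counts were of Ccl5, and the other members of that list together were at 25.8. Macrophage genes were at 1.91 in sum (1.74-2.1), short of the rule. Within them the oxidase subunit Cybb was at 16.2 (10.7-25.3) and the complement gene C1qa at 3.18 (2.38-4.23), while the protease Lgmn was at 0.261 (0.141-0.446) and Pf4 had 0 and 64 counts, at least 4.34-fold lower. Csf1r, the defining receptor, had 7 and 18 counts, and Adgre1 4 and 11, too few to be tested. The scaled library of the anti-PD-1 pool was 4.92-fold larger, so both ratios lay above 1. The part of these markers in the interferon result was not tested.

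The same lists were measured for the inhibitors without the antibody. The interferon-γ list had 8 counts in the AZD5363 and MK1775 pool and 849 in the control, a ratio of 0.524 (0.225-1.04). The ratio in the presence of the antibody was 32.5 times that value (16.1-65.7, approximate 95% counting interval on the log scale). For type I interferon genes the ratio of ratios was 11.5 (7.27-18.2), for MHC class I 6.48 (4.9-8.57) and for MHC class II 28.4 (7.03-115). The class II value rests on 2 counts in the AZD5363 and MK1775 pool, under the floor of 3, where its ratio to the control was 0.317 (0.0382-1.15). That pool held 26639 counts in all, and 3 counts in it equal 109 normalised CPM. A ratio of ratios of 1 was not the general level among the lists. The median over the 46 lists with such a value was 1.83, and 28 of them had an interval above 1, among them DNA damage and repair at 3.33 (2.37-4.68), the CCT chaperonin at 2.66 (1.97-3.6) and pigment genes at 2.27 (2.05-2.51). Over single tested genes the log2 ratio had a median of -0.05 with the antibody and -1.03 without it. The AZD5363 and MK1775 pool detected 5737 genes while 7948 were tested, so that -1.03 includes genes at 0 counts there and gives no general level. Across the pools, the interferon-γ list was at 8720 normalised CPM in the triple pool, 1850 with KS100 and anti-PD-1, 544 with KS100, 291 with AZD5363 and MK1775, 512 with anti-PD-1 and 556 in the control. The KS100 and anti-PD-1 value rests on 32 counts.

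**Figure D3:**
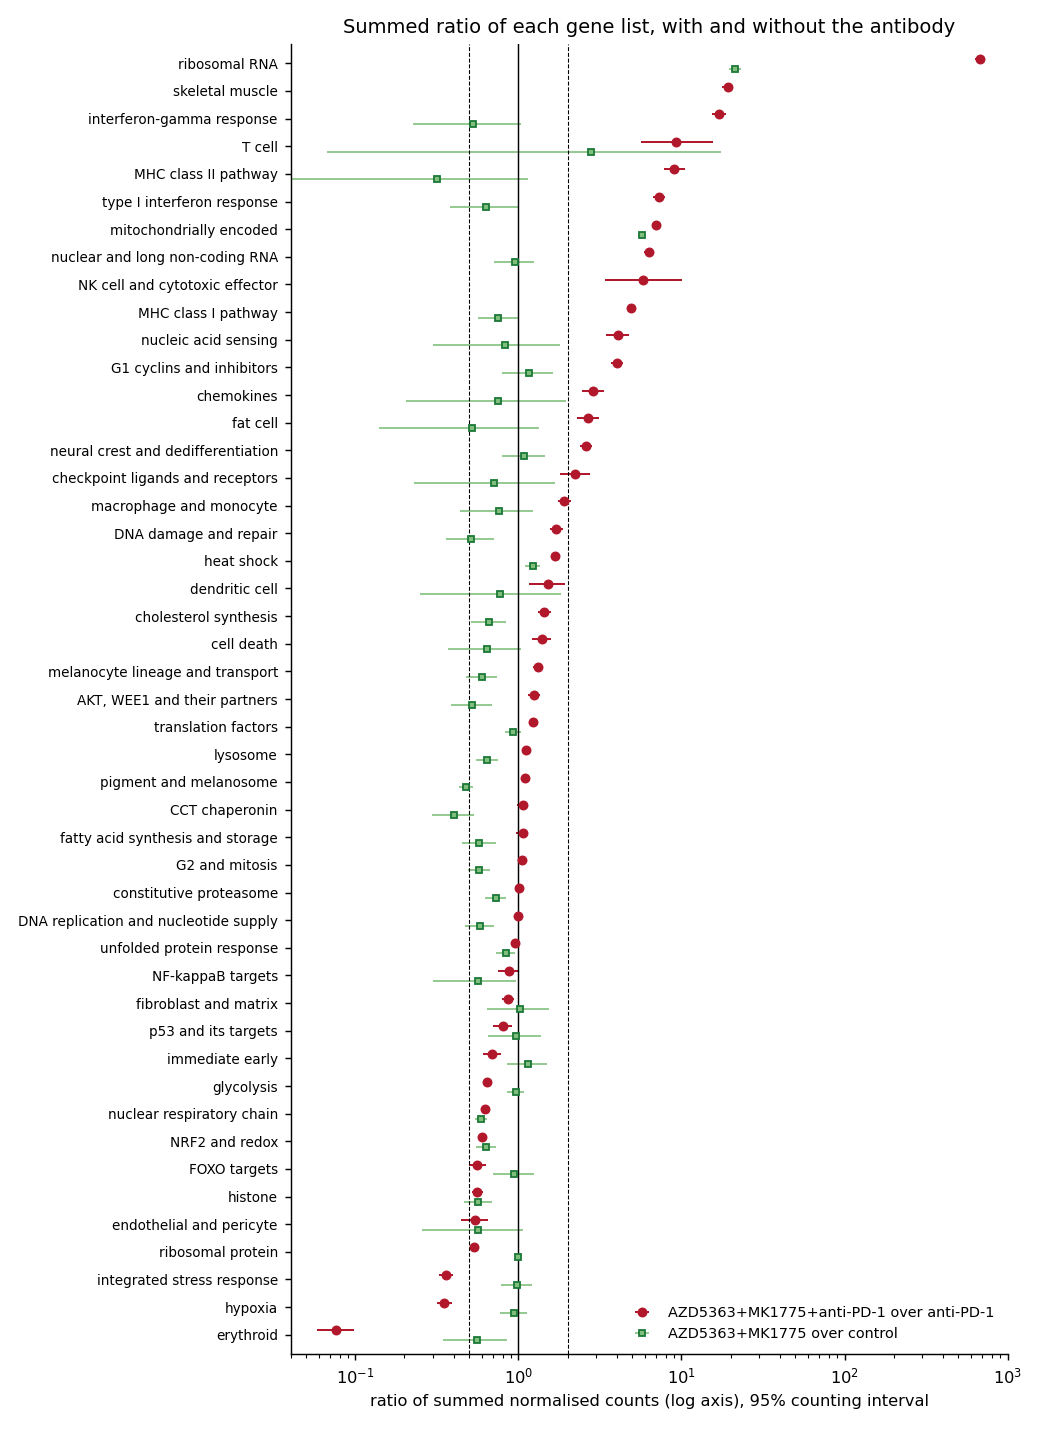
Each row is a gene list with at least 50 counts in the compared pools, placed by the ratio of its summed normalised counts on a log axis with 95% counting intervals; red circles are the triple pool over anti-PD-1, green squares AZD5363 and MK1775 over control, and dashed lines mark 2-fold. A square is missing where the inhibitor pool had 0 counts. The interferon-γ list sits at 17.0 with the antibody and 0.524 without it, while the mitochondrially encoded list sits at 6.98 and 5.73.

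Pigment cell genes, which mark the melanoma cells themselves, were at about the same summed level in both pools. Pigment genes had 26400 normalised CPM in the triple pool and 24200 in the anti-PD-1 pool, a ratio of 1.09 (1.06-1.12) that became 0.655 under library totals. The pigment enzymes Dct and Tyrp1 were at 1.04 (0.994-1.09) and 0.954 (0.841-1.08), and Pmel, which forms the fibrils of the melanosome, at 0.981 (0.866-1.11). Others of the list departed from that level in both directions. Tyr, the rate-limiting enzyme of melanin synthesis, had 28 and 24 counts, a ratio of 5.74 (3.21-10.3), and the potassium channel gene Kcnj13 53 and 3 counts, a ratio of 86.9 (28.2-435). Kcnj13 could be tested only because it was high in the triple pool. Mlana, a melanosome protein used as a melanoma antigen, had 418 and 1060 normalised CPM, a ratio of 0.393 (0.311-0.491), and Slc45a2, a melanosome transporter, was at 0.448 (0.354-0.561). Ptgds, a prostaglandin synthase, was at 0.144 (0.0915-0.215).

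The lineage transcription factors Mitf and Sox10 were at 0.773 (0.663-0.898) and 0.905 (0.692-1.17), not called. Of the 16 tested genes of melanocyte lineage and transport, 3 (18.8%) were called higher and none lower, at 1.31 in sum (1.23-1.4). Over all genes with the same minimum 11.7% were called higher and 8.33% lower. Those called were Rab27a, a GTPase of melanosome transport, at 6.46 (4.07-10.3), its motor Myo5a at 2.42 (1.96-2.98) and Rab38, while the transport genes Mlph and Rab32 were not called. Genes linked to a less differentiated, neural crest-like state were 2.6-fold higher in sum (2.39-2.83). Among them the adhesion receptor Cd44 was at 3.59 (3.14-4.11), and the transcription factors Zeb2 and Sox9 at 7.41 (5.46-10.1) and 7.23 (3.75-14.3). Under library totals that sum was 1.57 and was no longer called.

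Transcripts of the drug targets given here were not called. Akt1 had 557 normalised CPM in the triple pool and 402 in the anti-PD-1 pool, a ratio of 1.38 (1.11-1.71), and Akt2 was at 1.57 (0.565-3.79). Wee1 had 1 count against 0, so its transcript cannot be followed here, and its relative Pkmyt1 was at 0.458 (0.119-1.26). Both inhibitors act on kinase activity, which transcript counts do not measure. Of the 19 tested genes of AKT, WEE1 and their partners, 14 were not called, 3 (15.8%) were called higher and 2 (10.5%) lower. Over all genes with the same minimum the shares were 11.7% and 8.33%. The median log2 ratio of the list was 0.58, against 0.52 for genes of the same transcript lengths. Among those called, Cdc25a, the phosphatase that removes the phosphates WEE1 adds, had 393 and 55.6 normalised CPM, a ratio of 7.07 (4.94-10.2). Pik3r1, the regulatory subunit of PI3K, was at 6.15 (3.28-11.7) and Gsk3b at 2.1 (1.64-2.66). Cdk1 had 149 and 465 normalised CPM, a ratio of 0.321 (0.214-0.464), and Mtor 2 and 67 counts, a ratio of 0.147 (0.0174-0.551). Of the 15 tested genes of the FOXO list, Klf6 was called higher at 3.84 (2.72-5.39) and Bnip3 lower, and 13 were not called, among them Cdkn1b at 0.495 (0.287-0.804). The share called was 6.67% each way, below that of all genes with the same minimum.

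The D-type cyclins, which start the cell cycle by activating CDK4 and CDK6, were called higher, while the sums of the replication and mitosis lists were not called. Ccnd2 had 2150 normalised CPM in the triple pool and 135 in the anti-PD-1 pool, a ratio of 15.9 (13.0-19.4), Ccnd1 was at 8.19 (6.65-10.1) and Ccnd3 at 3.09 (2.31-4.11). The inhibitors Cdkn1a and Cdkn1b were not called. Replication genes were at 1.0 in sum (0.936-1.07), with 2 of 35 called higher and 1 lower, and genes of G2 and mitosis at 1.05 (0.997-1.1), with 4 of 42 called higher and 3 lower. Those shares lie below the 11.7% and 8.33% of all genes with the same minimum. Under library totals the sums were 0.603 and 0.631.

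Single mitotic and replication genes moved apart from those sums. The kinetochore motor Cenpe was at 7.16 (4.85-10.7) and the condensin subunit Smc4 at 5.75 (4.4-7.53), while the checkpoint gene Mad2l1 was at 0.191 (0.101-0.332) and Birc5, or survivin, at 0.476 (0.382-0.588). Rrm2, a subunit of the enzyme that makes deoxynucleotides, was at 0.452 (0.35-0.575), and the helicase subunit Mcm7 at 2.67 (2.01-3.53). Polo-like kinase Plk1 was at 0.784 (0.646-0.946) and not called.

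Among 20 DNA damage and repair genes with the minimum in the anti-PD-1 pool, 4 were called higher and 1 lower. Of all genes with that minimum, 11.7% were called higher and 8.33% lower. The whole list was at 1.71 in sum (1.57-1.88), not called, and at 1.03 under library totals. Rad50, of the break-sensing complex, was called higher at 6.48 (4.57-9.22). Atm, the kinase that answers double-strand breaks, had 87 counts in the triple pool and 10 in the anti-PD-1 pool, a ratio of 42.8 (22.2-92.4). Atm was not among the 20 and could be tested only because it was high in the triple pool. Atr, which answers stalled replication forks, was at 3.13 (1.72-5.57), and Rpa2, which coats single-stranded DNA, was called lower at 0.221. The p53 list gave 3 of 17 called lower and none higher, beside 8.33% and 11.7% of all genes with the same minimum. The gene itself, Trp53, had 45 and 15 counts, a ratio of 14.8 (8.07-28.5), and was not among the 17. Its death-promoting targets Bax and Bbc3 had 2 and 0 counts in the triple pool against 64 and 43 in the anti-PD-1 pool, a ratio of 0.154 (0.0182-0.578) and at least 2.91-fold lower. Cdkn1a was at 1.84 (1.32-2.54) and Mdm2 at 0.5 (0.314-0.763), neither called.

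Integrated stress response genes fell as a group. This pathway, set off when amino acids run short or misfolded protein builds up, works through the transcription factor ATF4, which induces amino acid synthesis and import. The list had 2130 normalised CPM in the triple pool and 5890 in the anti-PD-1 pool, a ratio of 0.362 (0.327-0.399). Of 22 tested genes 14 (63.6%) were called lower and none higher, beside 8.33% and 11.7% of all genes with the same minimum. Atf4 (chromosome 15, 80255184-80257541) had 318 and 1310 normalised CPM, a ratio of 0.243 (0.186-0.313). The cystine importer Slc7a11 had 4 and 182 counts, a ratio of 0.108 (0.0291-0.282), and its partner chain Slc3a2 was at 0.239 (0.15-0.362).

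Enzymes of serine, folate and asparagine synthesis that ATF4 induces were among the 14, while Aldh18a1, of proline synthesis, and Chac1, which breaks down glutathione, were not called. The serine synthesis enzymes Psat1 and Phgdh were at 0.33 (0.238-0.446) and 0.285 (0.121-0.578), the mitochondrial folate enzymes Shmt2 and Mthfd2 at 0.225 (0.111-0.411) and 0.422 (0.318-0.552), and asparagine synthetase, Asns, at 0.257 (0.109-0.52). The stress-induced factors Trib3 and Ddit3, or CHOP, were at 0.186 (0.0738-0.391) and 0.354 (0.173-0.651). Slc7a5, which exchanges amino acids with the same partner chain, was at 0.835 (0.668-1.04) and not called. The median log2 ratio of the list was -1.98, against -0.37 for genes of the same transcript lengths and -0.05 for all genes tested. After adjustment for length 10 of the 22 were called lower. Without the antibody the list had 86 and 4895 counts, a ratio of 0.977 (0.78-1.21), and the ratio with the antibody was 0.37 times that (0.293-0.468).

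Hypoxia-induced genes were lower too. They are switched on by HIF-1 when oxygen is scarce. The list had 1770 normalised CPM in the triple pool and 5040 in the anti-PD-1 pool, a ratio of 0.351 (0.315-0.391). Of 22 tested genes 8 (36.4%) were called lower and 1 (4.55%) higher, beside 8.33% and 11.7% of all genes with the same minimum. Bnip3, which marks mitochondria for removal, had 109 and 1280 normalised CPM, a ratio of 0.0858 (0.0536-0.131), and Ddit4, an inhibitor of mTOR signalling that also belongs to the stress list, had 3 and 241 counts, a ratio of 0.0612 (0.0125-0.181). Ero1l, the oxidase that drives disulphide formation, was at 0.155 (0.0927-0.244) and Ndrg1 at 0.146 (0.0469-0.348). P4ha1, a collagen prolyl hydroxylase, was the one called higher, at 2.75 (1.59-4.63). Without the antibody the list was at 0.941 (0.775-1.13), and the ratio of ratios was 0.373 (0.301-0.463).

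Glycolysis genes split by gene. Ldha, which turns pyruvate into lactate, had 1490 normalised CPM in the triple pool and 7680 in the anti-PD-1 pool, a ratio of 0.194 (0.172-0.218), and the glucose transporter Slc2a1 was at 0.309 (0.177-0.503). Hexokinase 2, Hk2, which traps glucose in the cell, had 955 and 106 normalised CPM, a ratio of 8.99 (7.05-11.5), and Aldoa was at 4.05 (3.56-4.6). Of 18 tested genes 4 (22.2%) were called each way, beside 11.7% higher and 8.33% lower among all genes with the same minimum. The sum was at 0.642 (0.609-0.677). Eno1 and Pgk1 have near-identical copies elsewhere in the genome, and their calls are uncertain.

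Other stress programmes gave smaller sums. Heat shock genes were at 1.68 (1.61-1.75), with the chaperone Hsp90aa1 at 5.66 (4.99-6.42) and Hsph1 at 4.68 (2.94-7.44). Genes of the NRF2 and redox list were at 0.596 (0.561-0.634): the haem-degrading enzyme Hmox1 had 2 and 321 counts, a ratio of 0.0306 (0.0037-0.112), the metal-binding Mt1 was at 0.196 (0.15-0.252), and the glutathione synthesis subunit Gclc at 3.49 (1.93-6.23). The unfolded protein response list was at 0.956 (0.911-1.0). Of the immediate early genes, Nr4a1 had 6 and 554 counts, a ratio of 0.0533 (0.0195-0.117).

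Markers of the tumour's surroundings differed between the pools in both directions. Skeletal muscle genes had 3769 counts in the triple pool and 968 in the anti-PD-1 pool, a ratio of 19.2 (17.8-20.6). The muscle creatine kinase Ckm had 319 and 12 counts, a ratio of 131 (73.8-256), titin, Ttn, 958 and 154, a ratio of 30.6 (25.8-36.5), and the fast myosin Myh4 was at 21.8 (17.5-27.5). Muscle genes were at 0 counts in the AZD5363 and MK1775 pool and 164 in the control. Car3, a carbonic anhydrase abundant in fat and muscle, was at 22.8 (15.6-34.3), and without it the fat cell list was at 1.14. Erythroid genes had 62 and 4006 counts, a ratio of 0.0761 (0.0583-0.0978). The β-globin gene Hbb-bs had 3 and 2755 counts, a ratio of 0.00536 (0.0011-0.0157), and Hbb-bt, a near-identical copy between which reads can be split, 3 and 613.

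Among matrix genes, 6 of the 19 with the minimum in the anti-PD-1 pool were called lower and 1 higher. The shares over all genes with that minimum were 8.33% and 11.7%. Col1a1, a chain of the main fibrillar collagen, had 139 normalised CPM in the triple pool and 1050 in the anti-PD-1 pool, a ratio of 0.132 (0.0874-0.192), while Col1a2, its partner chain in the same fibre, was at 1.06 (0.82-1.35) and Col3a1 at 1.04 (0.685-1.55). Fibronectin, Fn1, was at 0.24 (0.158-0.351), and the cross-linking enzyme gene Lox had 0 and 96 counts, at least 6.51-fold lower. Sparc, a collagen-binding protein that melanoma cells also make, was at 4.32 (3.71-5.03) and held 53.1% of the list's counts in the triple pool. The sum was 0.863 (0.791-0.941) with it and 0.453 without it. Endothelial and pericyte genes were at 0.544 in sum (0.447-0.655), not called. Of 13 tested genes 3 (23.1%) were called lower and none higher, beside 8.33% and 11.7% of all genes with the same minimum. The 10 not called included Kdr, Flt1 and Pecam1. Those called were Cdh5, the cadherin of vessel walls, at 1 and 47 counts, a ratio of 0.105 (0.0026-0.612), and the adhesion genes Esam at 0.0693 (0.00173-0.399) and Mcam at 0.122 (0.0486-0.255).

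**Figure D4:**
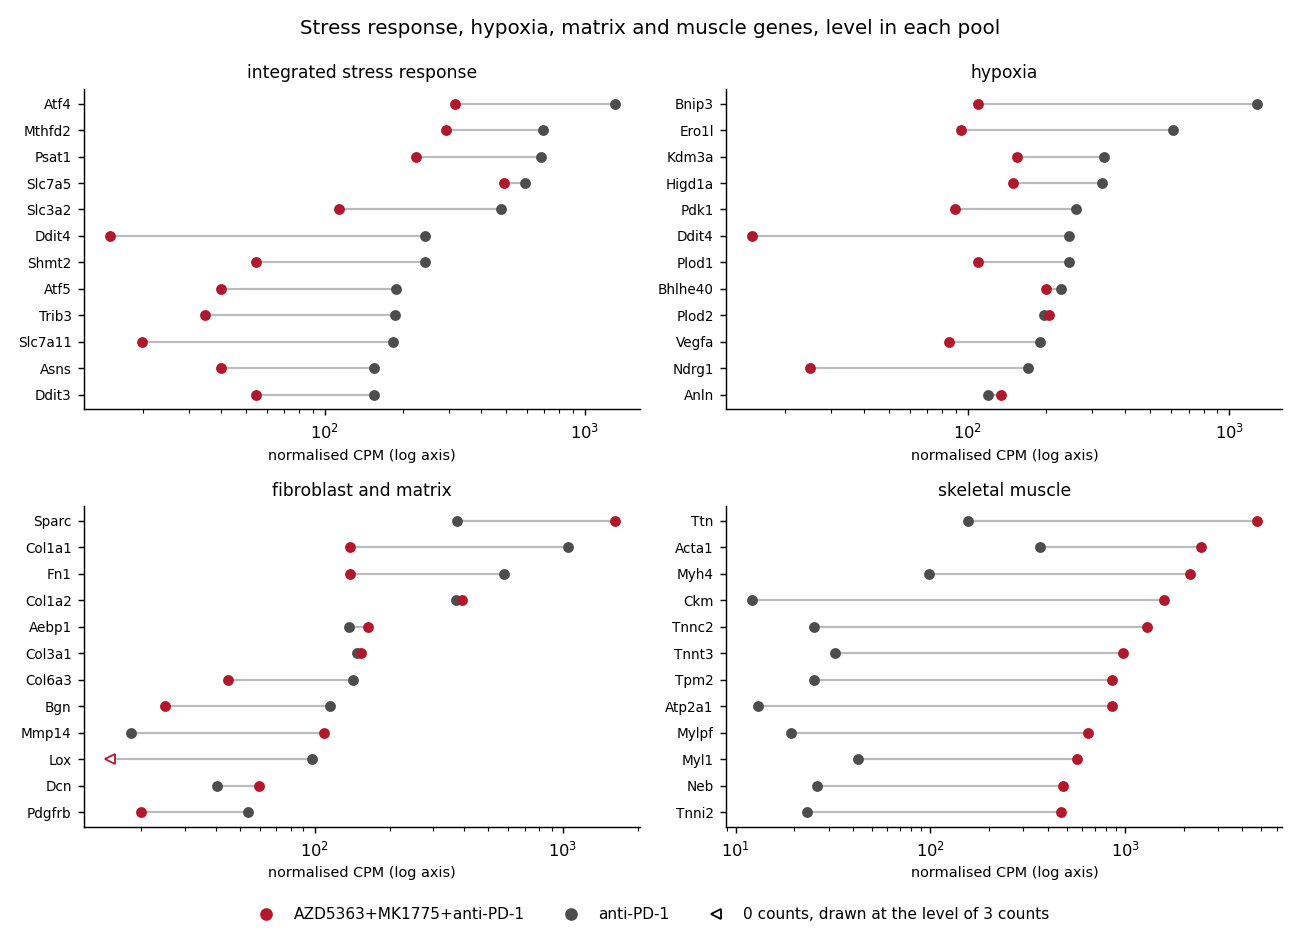
Each row is a gene, with its normalised CPM on a log axis in the triple pool (red) and the anti-PD-1 pool (grey), for 12 tested members of each list by their higher level; open triangles mark 0 counts, drawn at the level of 3 counts. Red points lie left of grey for all stress genes drawn and for all hypoxia genes drawn except Plod2 and Anln, right of grey for all the muscle genes drawn, and on either side for matrix genes.

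Mitochondrially encoded messengers were higher, and nuclear genes of the respiratory chain and the ribosome were below 1 in sum but short of the rule. The 6 tested mitochondrially encoded messengers were all called higher, at 6.98 in sum (6.82-7.14), from 2.5 (2.4-2.61) for the cytochrome gene mt-Cytb to 67.4 for mt-Nd2, a subunit of complex I. Reads of these genes can be divided with nuclear copies of mitochondrial DNA. Nuclear genes of the respiratory chain were at 0.62 in sum (0.598-0.643), with 21 of 71 called lower and 2 higher: Cox7b, of complex IV, was at 0.201 (0.147-0.268), and Ndufa10, of complex I, at 8.05 (5.46-12.0). Ribosomal protein genes were at 0.532 (0.521-0.544), with 35 of 75 called lower and 3 higher, although their many pseudogenes make single values uncertain. Of the tested genes of these 2 nuclear sets, 29.6% and 46.7% were called lower and 2.82% and 4.0% higher. Over all genes with the same minimum the shares were 8.33% and 11.7%. Both sets of nuclear genes are short. Their median log2 ratios were -0.6 and -0.85, against -0.43 for genes of the same transcript lengths. Of the shortest group of genes described below, 15.9% were called lower and 7.58% higher.

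Without the antibody the mitochondrial messengers were at 5.73 (5.51-5.95), the nuclear respiratory chain at 0.592 and ribosomal protein genes at 1.0 (0.961-1.04). Ribosomal RNA genes were 676-fold higher in the triple pool (627-730) and 21.3-fold higher without the antibody. Transcripts kept in the nucleus were covered mainly by Malat1, which had 9160 and 71.8 normalised CPM, a ratio of 128 (101-164), and held 84.6% of its list's counts in the triple pool. Xist, the RNA that coats the inactive X chromosome, was at 50.2 (26.2-108), and Gas5, which hosts small nucleolar RNAs, at 0.31 (0.225-0.418).

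The ratio followed transcript length across genes. In 5 equal groups of 6994 nuclear protein-coding genes, from the shortest to the longest transcripts, the median log2 ratio was -0.43, -0.31, -0.12, 0.08 and 0.52. The share called higher was 7.58% in the shortest group and 27.2% in the longest, and the share called lower 15.9% and 3.72%, with a Spearman rho of 0.28 between ratio and length across genes. The library kit captures fragments next to the 3′ end, and the part of length in the calls was not tested beyond the adjustment given here. Interferon-γ genes have a median length of 2823 bases, and genes of the same lengths had a median log2 ratio of -0.31. Adjusting each ratio for length left 1004 genes called higher, 850 of them shared with the 1000 above, and 472 called lower, 381 of them shared. The interferon-γ sum was then 19.5, and ribosomal protein calls were 25 lower and 5 higher.

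**Figure D5:**
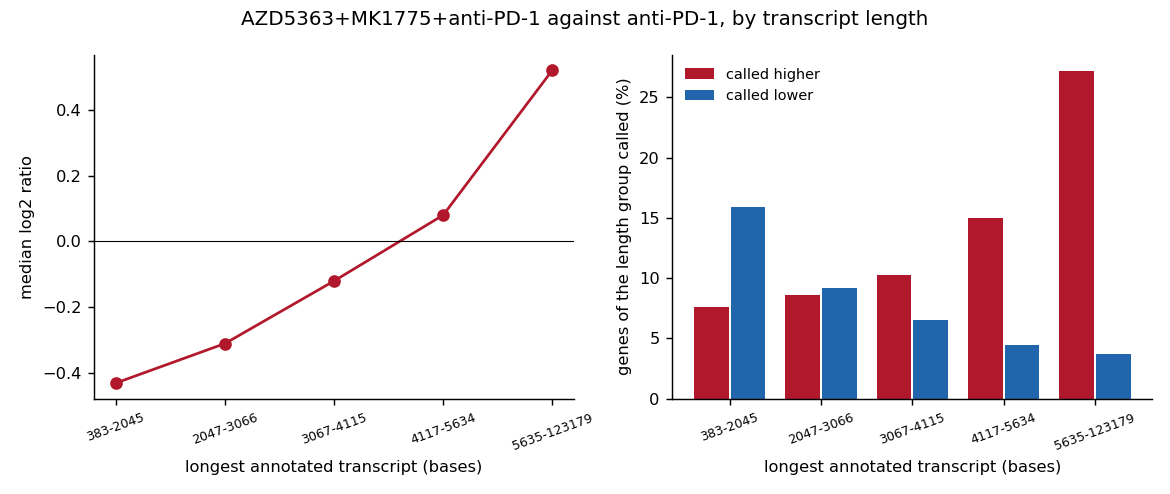
Nuclear protein-coding genes are in 5 equal groups by the length of their longest annotated transcript in bases; the left panel gives the median log2 ratio of the triple pool over anti-PD-1 and the right panel the percent of each group called higher (red) or lower (blue). The median climbs from -0.43 to 0.52 and the share called higher from 7.58% to 27.2%.

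Beyond the lists, the called genes with the bounds farthest from 1 had varied roles. Mgll, the monoacylglycerol lipase that frees fatty acids from stored fat (chromosome 6, 88724412-88828360), had 3710 normalised CPM in the triple pool and 35.4 in the anti-PD-1 pool, a ratio of 105 (74.7-152). Lyst, a regulator of lysosome traffic whose loss dilutes coat colour in mice, and Gatad2b, of a chromatin remodelling complex, had 38 counts each against 0, at least 62.3-fold higher. Vgll4, a partner of TEAD transcription factors, had 35 against 0, at least 57.4-fold higher. The antiviral helicase Ddx60 was at least 50.8-fold higher, Mndal of the p200 family was at 71.8 (29.4-228), and Hrc, a calcium-binding protein of muscle, was at least 39.3-fold higher. Snord13, a small nucleolar RNA, was at 47.9 (31.9-74.7), beside mitochondrial transfer RNAs.

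Lower genes outside the lists included Adam12, a membrane metalloprotease, with 0 counts in the triple pool and 186 in the anti-PD-1 pool, at least 12.6-fold lower. Aldh2, the mitochondrial aldehyde dehydrogenase, had 1 and 252 counts, a ratio of 0.0195 (0.000492-0.11). Idh2, which makes NADPH in mitochondria, was at 0.137 (0.1-0.183), and Atp5mpl, a small protein of the ATP synthase, at 0.0829. Kctd15 was at 0.0622 (0.0297-0.115) and the prohormone-processing enzyme Cpe at 0.119 (0.0608-0.209).

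The calls were set beside those of the inhibitors alone. Without the antibody 7948 genes were tested and 2.93% were called, 131 (1.65%) higher and 102 (1.28%) lower, in pools far less deep on the treated side. Genes called higher in both comparisons numbered 36, which is 3.6% of the list with the antibody and 27.5% of the list without it, and genes called lower in both numbered 30, or 5.18% and 29.4%. Among all genes tested with the antibody, 14.0% were called higher and 8.11% lower. The 10 shared higher genes with the most counts were ribosomal RNA and mitochondrially encoded genes and Malat1. The shared lower genes included the cytokine Mif, at 0.252 with the antibody and 0.496 without it, and Mt1 at 0.196 and 0.448.

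At the minimum itself, 159 genes had exactly 20 counts in their higher pool and 145 had 19. Just inside were the chemokine Ccl9 and the endothelin receptor gene Ednrb, each with 1 count in the triple pool and 20 in the anti-PD-1 pool, and just outside were Cd274, with 19 and 0, and the cyclin-dependent kinase Cdk6, with 9 and 19.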

How the data were processed

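RNA of pooled tumours, 1 pool for each of 6 treatments, was sequenced from the 3′ end (QuantSeq FWD, MiSeq, 151 cycles), per the labels' protocols. The authors deposited whole-number counts per Ensembl gene; per the submitters' processing notes the tools were bcl2fastq, HISAT2 2.1.0 and HTSeq and the build was GRCm38, while annotation release and strand setting are not given in these sources. Of 43721 rows, 92 were spike-ins with 0 counts and were left out; 42548 genes matched GENCODE M21, used for symbols, positions and lengths. Every column was mapped to a pool by its description label.

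Counts were scaled with TMM factors over all 6 pools (edgeR 4.0.16 in R 4.3.3, 4912 genes, factors 0.675 to 1.16). Genes with 20 or more counts in either pool were compared by the normalised ratio with a 95% exact conditional Clopper-Pearson interval (scipy 1.17.1); log2 ratios used a prior count of 2, and a pool at 0 was set to 3 counts for an at-least ratio. Intervals cover counting error only. With 1 library per treatment no p-value was computed. The calling step was tested on simulated Poisson counts with known folds and library sizes. The simulation had no spread between tumours, no ribosomal RNA shift, no length trend and no TMM step, so it does not cover those. Alternatives were DESeq2 1.42.0 size factors, library totals, TMM over 2 pools or without some genes, other minimums and folds, thinning, and length adjustment. Promoters came from RefSeq (GRCm38.p6).

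The genes compared and the 50 lists were chosen with earlier results of these data known, and 52 genes stand in more than 1 list. Named genes were list members called with the bound nearest 1 farthest out or with the most counts, all checkpoint, AKT and WEE1 genes with counts, up to 15 genes each way outside the lists, genes called in both comparisons, and genes at the minimum. Other list members given as examples were chosen after their values were seen, and a few genes that these rules name are not reported here.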

Additional observations from a re-analysis of the deposited data

Results flagged for a closer look

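A set of 11 genes given here was called in opposite directions by the inhibitor pair with and without the antibody. Without the antibody 102 genes were called lower and 131 higher. Over all genes tested with the antibody, 14.0% were called higher and 8.11% lower. The genes given here lie below those shares in both directions. The differences between the effects were not tested, and the pool of AZD5363 and MK1775 with control IgG held 26639 counts. Of the 11 genes, 6 were higher in the triple pool than in the anti-PD-1 pool and lower in the AZD5363 and MK1775 pool than in the control. The tubulin gene Tuba1b, which has close paralogs, was at 2.77 with the antibody and 0.176 without it. Progranulin, Grn, was at 2.43 and 0.267, and Rab38, a GTPase of melanosome traffic, at 2.0 and 0.149. The histone methyltransferase gene Kmt5a was at 3.02 with the antibody, the replication-linked Uhrf1 at 2.05 and the respiratory chain gene Cox8a at 2.67. All 3 had 0 counts in the AZD5363 and MK1775 pool. Against the control, Kmt5a was at least 3.19-fold lower there, Uhrf1 at least 2.06-fold and Cox8a at least 2.22-fold.

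The other 5 went the other way. Pabpc4, a poly(A)-binding protein gene, was at 0.279 with the antibody and 2.93 without it, and Ppp1r26 at 0.0723, from 1 and 68 counts, and 4.45, from 6 and 75 counts. Rpl37 was at 0.254 and 2.27. The pseudogene Rpl31-ps8 was at 0.0761 and 5.27, and Rpl9-ps6, at 0 counts in the triple pool, was at least 3.12-fold lower with the antibody and at 8.69 without it, from 5 and 32 counts. The last 3 share reads with ribosomal protein copies.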

How the results depend on the processing

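Calls depended on the scaling, and on the fold and minimum by construction; ribosomal RNA took 27.6% of the triple pool's counts. The 1000 genes called higher became 513 under library totals, 528 with a minimum of 50 counts, 1934 with no minimum, 498 with a 4-fold rule and 1673 with a 1.5-fold rule. The 579 called lower became 1760 under library totals, 924 under TMM over the 2 pools alone, 197 with the 4-fold rule and 1421 with the 1.5-fold rule. These scalings moved all log2 ratios by -0.73 (library totals), -0.27 (TMM over 2 pools), -0.15 (TMM without mitochondrial and ribosomal RNA genes) and -0.09 (DESeq2 size factors). Thinning the anti-PD-1 pool to the triple pool's total count gave 851 and 496, although by TMM-scaled library size the pools differed 4.92-fold. Of the lists, 16 had a summed ratio called higher, with 12 to 20 over the alternatives, and 3 called lower (integrated stress response, hypoxia and erythroid), with 12 under library totals, 8 under TMM over the 2 pools, 5 under TMM without mitochondrial and ribosomal RNA genes, also 5 when muscle and erythroid genes were left out as well, 1 with the 4-fold rule and 10 with the 1.5-fold rule. The interferon-γ sum was 10.3 to 19.5 over the alternatives. Of 646 list values under alternatives 605 kept their side of the rule, 11 lost a call, 30 gained one and none reversed; the 6 lists that lost one were checkpoint genes, chemokines, fat cell, neural crest, integrated stress response and hypoxia, the last pair only under the 4-fold rule. Of 2059 such values of named genes 91 lost a call, 1 gained one and none reversed. A changed minimum or fold rule leaves every ratio as it was, so these settings could reverse no call. The scalings and the length adjustment could reverse none either. The largest scaling shift was -0.73, and the length adjustment used median log2 ratios of -0.43 to 0.52. Both are smaller than the 2-fold that a call needs, so the absence of reversals under them is no result. List sums do not use the minimum, so the list values under the changed minimums had to stay the same. The length adjustment, the unfiltered TMM and the TMM without muscle and erythroid genes were chosen after seeing the data. Genes called higher by AZD5363 and MK1775 against control went from 131 to 85 with a minimum of 50 counts and 305 with none. No paired analysis was possible because each treatment had 1 pool. In the triple pool 20 counts equal 99.5 normalised CPM, against 20.2 in the anti-PD-1 pool, so genes that are weak in the triple pool were poorly resolved.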
